A study of Rattus norvegicus with 12 samples.

Results

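Brain and testis of wild-type rats were compared across all genes whose FPKM averaged 1 or more in 6 libraries, 3 from each tissue. FPKM is a fragment count divided by gene length and by library depth. These 6 libraries were taken from a series of 12, and 16115 of its 25908 genes met the rule. The samples came from adult male Sprague Dawley rats aged 15 weeks, with no transgene. The other 6 libraries came from brain and testis of rats of the same strain, age and sex that carry human DNMT3A, a DNA methyltransferase gene, and they are used here for a check in libraries the rule did not use. The sources used here do not give the brain region, the cells taken or whether the numbered samples were separate rats. A p-value here thus measures spread among these samples, and that spread may be technical.

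Brain and testis are known as tissues with unusually rich transcription. The brain mixes neurons, myelin-forming and other glia and vessels, and many neuronal genes for receptors, channels and adhesion proteins are long. The adult testis consists mainly of germ cells at successive steps of spermatogenesis, beside the Sertoli cells that nurse them and the Leydig cells that make testosterone. Meiotic cells and round spermatids transcribe a wide range of genes, and late spermatids store large amounts of a few short messages for the compaction of sperm chromatin and for the tail. In bulk tissue, fewer cells of a type and less RNA per cell cannot be told apart.

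The table names genes by Ensembl identifier, and 0 of the 25908 identifiers could be paired with a symbol through the reference table of 47357 rat genes. Marker genes of brain and testis cell types were therefore not used here, and the tissue programmes are described as sets of genes defined by their level. Genes are called by their place in a tissue, and 4 identifiers are printed. The tissue labels were checked by correlation across the tested genes, on the scale log2(FPKM + 0.5). Wild-type brain libraries correlated with each other and with the transgenic brain libraries at r = 0.967 to 0.988, and with wild-type testis libraries at 0.103 to 0.207. Wild-type testis libraries correlated with each other at 0.987 to 0.988 and with the transgenic testis libraries at 0.981 to 0.985. Each library thus stood with its labelled tissue.

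Whole reads behind the values were recovered from the size of 1 step in FPKM, and they came to 14002786 to 15207339 in the brain libraries and 14574953 to 15963354 in the testis libraries. Brain replicate 2 stood apart. It held more RNA of testis genes than the other brain libraries, and its correlation with the testis libraries was 0.203 to 0.207, against 0.103 to 0.136 for brain replicates 1 and 3. The main counts and differences that touch these genes are also given without it.

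The tissues differed in how steeply expression was concentrated in a few genes. The single highest gene held 3.46%, 3.07% and 3.44% of all FPKM in brain replicates 1, 2 and 3, and 1.98%, 1.87% and 2.09% in testis replicates 1, 2 and 3. The 10 highest genes held 18.7%, 17.9% and 19.4% in the brain libraries and 10.01%, 9.14% and 9.79% in the testis libraries. The mean share of the 10 highest was 18.7% ± 0.752 (SD, n = 3) in brain and 9.64% ± 0.452 (SD, n = 3) in testis, a ratio of 1.94. Every brain library lay above every testis library in both measures, so the tissues differed by far more than the replicates. An exact two-sided permutation test gave p = 0.1, which is the smallest value that 3 against 3 libraries allow, so no measure of this kind could pass 0.05. With Benjamini-Hochberg adjustment over the 31 measures compared, this p became 0.115.

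Further down the ranking the lead of the brain was lost. The 100 highest genes held 32.0% ± 0.992 of FPKM in brain and 25.6% ± 0.571 in testis (SD, n = 3 each). For the 500 highest genes the shares were 48.7% ± 1.30 and 47.1% ± 0.646, and the libraries overlapped (exact permutation p = 0.3). This overlap came from brain replicate 2, at 47.3%. Brain replicates 1 and 3, at 48.9% and 49.9%, lay above every testis library (46.4% to 47.5%). For the 1000 highest genes the shares were 58.8% ± 1.34 in brain and 60.0% ± 0.695 in testis, again with overlap (p = 0.2, exact permutation test). The genes ranked 11 to 1000 held 40.1% ± 0.603 in brain and 50.4% ± 0.263 in testis, with no overlap. The mean shares of brain and testis, drawn in the plot of cumulative FPKM, therefore changed order between 500 and 1000 genes, where the libraries overlapped.

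**Figure D1:**
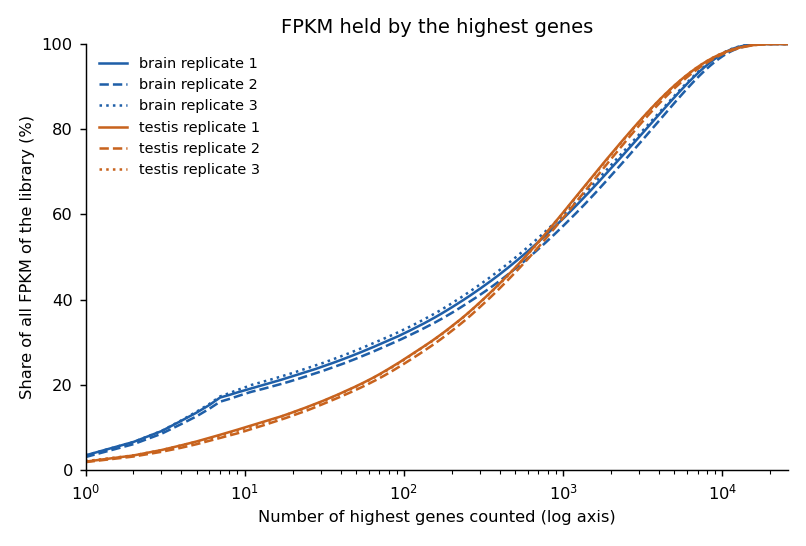
Share of all FPKM (vertical axis, %) held by the highest genes of a library (horizontal axis, number of genes counted from the highest, log axis), with 1 line per wild-type library (blue, brain; orange, testis). The brain lines lie above the testis lines at 10 genes (17.9% to 19.4% against 9.14% to 10.01%) and overlap with them at 1000 genes.

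The number of genes needed to reach a fixed share also depended on where the count stopped. To reach 50% of FPKM took 544, 613 and 506 genes in brain replicates 1, 2 and 3, and 577, 616 and 579 in testis. These ranges overlapped (exact permutation p = 0.4), through brain replicate 2 alone, as brain replicates 1 and 3 lay below every testis library. To reach 90% took 5773, 6173 and 5667 genes in brain and 4911, 5137 and 4924 in testis, with every brain library above every testis library. The effective number of genes, the exponential of the Shannon entropy of the FPKM shares, was 2448, 2706 and 2329 in brain and 3066, 3274 and 3082 in testis. By this measure the brain libraries were the less even, as all 3 lay below all 3 testis libraries.

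This order rested on a small number of brain genes. Without the 10 highest brain genes, the 100 highest of the remaining genes held 16.9% to 17.8% of the rest in brain and 23.4% to 24.3% in testis, the opposite order. This removal was uneven, as it took 17.9% to 19.4% of FPKM from the brain libraries and 3.10% to 3.34% from the testis libraries. A shift toward testis was thus built into it. The effective number of the rest was 4848 to 5334 in brain and 3243 to 3446 in testis. When the 10 highest genes of each tissue, 17 genes in all, were left out of every library, the 100 highest of the rest held 16.9% to 17.8% in brain and 17.8% to 18.3% in testis. The effective number was then 4848 to 5328 in brain and 4162 to 4318 in testis. Both removals were chosen after the shares were seen. Below its extreme top, FPKM in these brain libraries was spread over more genes than in the testis libraries.

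The 10 highest brain genes were also expressed in testis. All 10 were among the 10 highest of each wild-type and each transgenic brain library. In the testis libraries they held 3.10% to 3.34% of FPKM, and 3 of them were among the 10 highest testis genes. The highest brain gene, of 1545 bp by the length implied by the FPKM steps, stood at 16106, 14152 and 16361 FPKM in brain replicates 1, 2 and 3. In testis it stood at 3908, 3427 and 3597 FPKM, where it ranked 7 in each library. The second, of 784 bp, stood at 14674, 13913 and 15004 FPKM in brain and 3458, 3169 and 3395 in testis. The lowest brain value of each was over 3 times its highest testis value.

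The brain to testis ratio of these genes was moderate. The 7 highest brain genes had means between 8064 and 15540 FPKM in brain and were 3.71 to 6.66 times as high there as in testis. The genes in places 8, 9 and 10 had brain means of 3152, 3114 and 2577 FPKM and were 14.5, 10.01 and 6.61 times as high as in testis. All 10 passed the test across genes, as did 89.7% of the genes tested, so passing sets them apart little. None of them differed by 16-fold, and 9 reached 4-fold on the fitted scale.

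The highest testis genes behaved differently. Of the 10, all in the 10 highest of every testis library, 7 were more than 100 times as high in testis as in brain, and the other 3 were genes of the brain list, which are lower in testis. ENSRNOG00000002532, of 396 bp, was the highest testis gene, with 10820, 10105 and 11454 FPKM in testis replicates 1, 2 and 3. In brain replicates 1, 2 and 3 it stood at 42.2, 193 and 2.16 FPKM, from 251, 1068 and 13 reads. ENSRNOG00000002566, of 553 bp and in place 3 in testis, stood at 6937, 6000 and 6288 FPKM in testis and at 18.6, 73.7 and 3.09 FPKM in brain, from 154, 571 and 26 reads. For both genes each testis library lay far above each brain library, and the brain libraries differed among themselves in the order of replicates 2, 1 and 3.

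**Figure D2:**
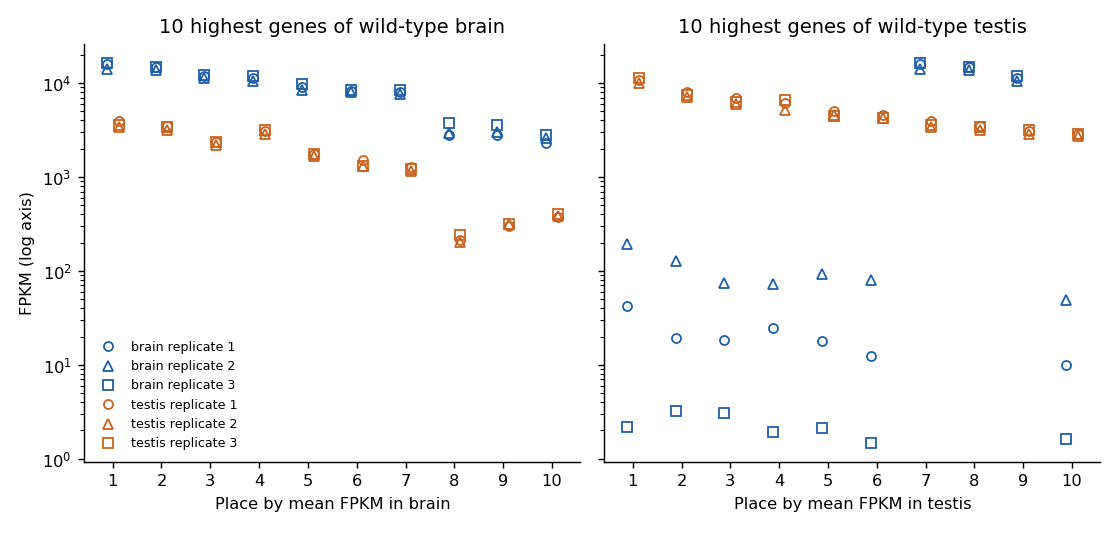
FPKM (vertical axis, log axis) of the 10 genes with the highest mean in brain (left) and in testis (right), by their place in that tissue (horizontal axis), with 1 symbol per wild-type library. Brain genes stay between 201 and 3908 FPKM in testis, whereas 7 of the testis genes range from 1.48 to 193 FPKM in brain, highest in replicate 2 and lowest in replicate 3.

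ENSRNOG00000002532 had a log2 difference, brain minus testis, of -8.59 (SE 1.44, limma adjusted p = 0.0011), and a testis mean 137 times the brain mean. Without brain replicate 2 the ratio of the means was 486 and the log2 difference -9.98, and without brain replicate 3 the log2 difference was -6.89. ENSRNOG00000002566 had a log2 difference of -8.54 (SE 1.01, limma adjusted p = 1.7e-04) and a ratio of 202. Without brain replicate 2 these were -9.59 and 592, and without brain replicate 3 the log2 difference was -7.41. Both genes were called in each case. The SE of these genes was far above the median SE of 0.13 over all genes tested, and their brain values were the ones that spread. In the transgenic brain libraries ENSRNOG00000002532 stood at 3.98, 19.9 and 21.6 FPKM, below brain replicates 1 and 2.

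The same order of the brain libraries held for testis genes as a set. There were 540 genes averaging 100 FPKM or more in testis that were called at least 16-fold higher there, and 552 in a fit without brain replicate 2. The median of the 540 level in brain was 0.473% of the testis level in replicate 1, 1.87% in replicate 2 and 0.178% in replicate 3. Of the 540 genes, 320, 534 and 207 reached 1 FPKM in these libraries, and 6, 1 and 71 had 0 reads. In the transgenic brain libraries the median level was 0.145% to 0.291%. Replicate 2 was thus the highest of all 6 brain libraries for these genes. Whether this RNA came from brain cells was not tested.

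No such spread was seen in the testis libraries. For 242 genes averaging 100 FPKM or more in brain and at least 16-fold higher there, the median level in testis was 1.02%, 1.04% and 0.962% of the brain level in replicates 1, 2 and 3. The 10th percentile was 0.035% to 0.042% and the 90th 4.46% to 5.17%. The transgenic testis libraries gave medians of 1.01% to 1.08%. Between 11 and 13 of the 242 genes had 0 reads in a wild-type testis library.

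The largest brain differences by the rule for printed identifiers were found in genes almost silent in testis. ENSRNOG00000010688, of 1373 bp, stood at 833, 875 and 788 FPKM in brain replicates 1, 2 and 3, and had 1, 1 and 0 reads in testis replicates 1, 2 and 3. The ratio of its reads, scaled to depth, was 26091 (95% counting interval 7222 to 215444), and the fitted log2 difference was 10.61 (SE 0.07, limma adjusted p = 1.3e-08). ENSRNOG00000006037, of 2115 bp, stood at 770, 728 and 808 FPKM in brain and had 2, 0 and 1 reads in testis. Its read ratio was 24830 (8496 to 120404) and its log2 difference 10.50 (SE 0.08, limma adjusted p = 1.3e-08). For both genes every brain library was far above every testis library, and the fitted values depend on the pseudocount: they were 12.64 and 12.55 with 0.1 FPKM. In the transgenic testis libraries ENSRNOG00000010688 had 5, 0 and 3 reads and ENSRNOG00000006037 had 1, 0 and 0. The intervals cover counting error alone, as these reads carry no molecular identifiers and need not be independent molecules.

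Levels other than the very highest also divided the tissues. Testis libraries had more abundant genes: 1093, 1068 and 1078 genes reached 100 FPKM in testis replicates 1, 2 and 3, against 671, 654 and 683 in brain. At 1000 FPKM the counts were 36 to 40 in testis and 23 to 25 in brain. The order was the opposite in the middle of the range, where 6365 to 6687 genes lay from 10 to 100 FPKM in brain and 5432 to 5586 in testis. From 1 to 10 FPKM it turned again, with 6574 to 7049 genes in brain and 7824 to 8064 in testis. None of these ranges overlapped, and each gave the smallest exact permutation p of 0.1. These counts used FPKM as deposited, which summed to 461245 to 476067 in brain and 539160 to 546980 in testis. A fixed FPKM is thus a larger share of the total in brain, and the counts were not repeated at an equal total.

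**Figure D3:**
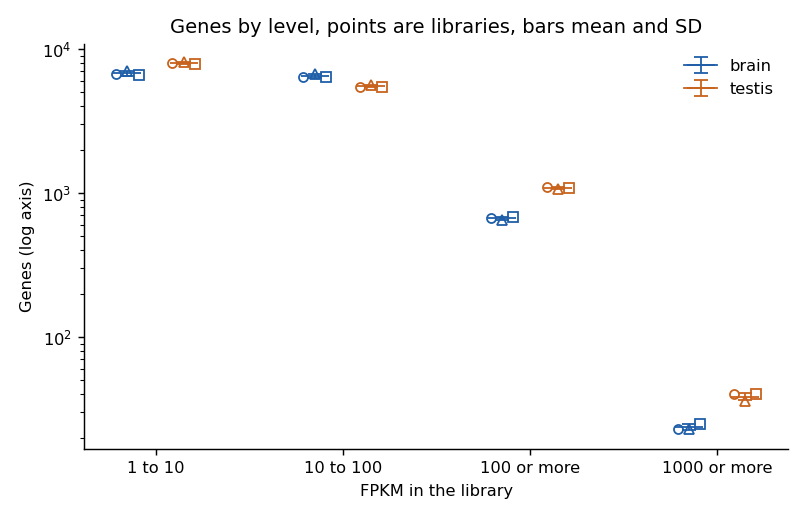
Genes per library (vertical axis, log axis) by FPKM class (horizontal axis) in wild-type brain (blue) and testis (orange), with 1 symbol per library and the mean ± SD of 3 libraries. Testis has more genes of at least 100 FPKM (1080 ± 12.6 against 669 ± 14.6) and brain more from 10 to 100 FPKM (6487 ± 175 against 5499 ± 79.1). The classes use FPKM as deposited, whose total is lower in the brain libraries.

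More genes were detected in testis. Reads were found for 21251, 21320 and 21232 genes in testis replicates 1, 2 and 3, and for 19100, 19836 and 18820 in brain. At least 10 reads were found for 16196 ± 72.8 genes in testis and 15011 ± 338 in brain (SD, n = 3 each). Thinned to the depth of the shallowest of the 6 libraries, which is brain replicate 2, the expected numbers were 15911 to 16179 in testis and 14609 to 15390 in brain, the same order. At 1 FPKM the tissues overlapped, with 14380 to 14718 genes in testis and 13622 to 14390 in brain. The highest brain value was that of replicate 2, and replicates 1 and 3 had 13730 and 13622. In each of these counts brain replicate 2 was the closest of its group to testis.

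Most of the genes tested differed between the tissues. With limma on log2(FPKM + 0.5), 14462 of the 16115 genes (89.7%) were called at an adjusted p under 0.05. Brain was higher for 7774 (48.2%) and testis for 6688 (41.5%). A call alone therefore says little about a gene here, and the size of the difference is given instead. Taken without sign, the log2 differences had a median of 1.87, and the quartiles of brain minus testis were -1.96 and 1.82. At least 2-fold differences were called for 70.4% of genes. The means of the tissues correlated weakly across genes (Pearson r = 0.157, Spearman rho = 0.173), a description over genes that are not independent. The filter on the mean of the 6 libraries also admits genes through a single tissue. A mean of at least 1 FPKM was reached in brain only by 2423 genes (15.0%) and in testis only by 2688 (16.7%). The correlation and the share called thus depend in part on the filter. The 6 libraries were separated completely, with no overlap of the groups, for 14630 genes (90.8%).

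Differences of at least 4-fold were called for 3654 genes with brain higher (22.7%) and 3980 with testis higher (24.7%), an order that turned to 4037 and 3779 when each library was scaled to an equal FPKM total and to 2669 and 2649 for genes of at least 5 FPKM. Without brain replicate 2 the counts were 3579 and 4141. The median over all genes lay at 0.23 on the log2 scale, toward brain. It lay at 0.03 with median-ratio scaling and at 0.43 with an equal FPKM total, so the direction of small differences depends on the scaling. At least 16-fold differences were called for 1087 genes with brain higher (6.75%) and 1636 with testis higher (10.2%), counts that depend on the pseudocount. They were 1700 and 2691 with a pseudocount of 0.1 FPKM. Without brain replicate 2 they were 1084 and 1732.

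**Figure D4:**
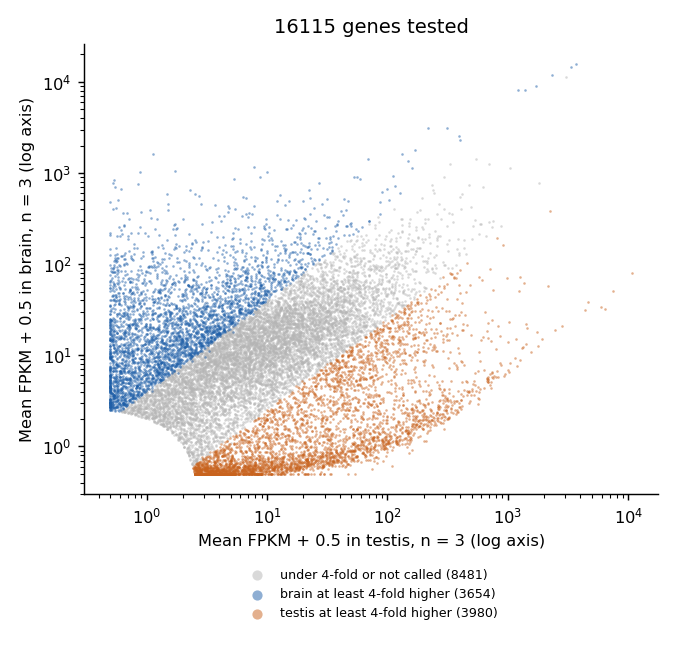
Mean FPKM + 0.5 in brain (vertical axis) and testis (horizontal axis), both log axes, with 1 point per gene and 3 libraries per mean. Genes at least 4-fold higher in brain (3654, blue) or in testis (3980, orange) flank 8481 others (grey), and the lower edge of the orange points rises with the testis level. Brain means include replicate 2. There, 540 abundant testis genes had a median of 1.87% of their testis level, against 0.473% and 0.178% in replicates 1 and 3.

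These sets accounted for most of the expression of their tissue. The 3654 genes called at least 4-fold higher in brain held 56.0%, 55.1% and 56.3% of FPKM in brain replicates 1, 2 and 3 and 5.03% to 5.08% in testis. The 3980 genes higher in testis held 62.3%, 61.5% and 61.9% in testis replicates 1, 2 and 3. In brain they held 2.85%, 3.84% and 2.63%, with replicate 2 again the highest. The remaining 8481 genes, a majority by number, held 40.6% to 40.7% of FPKM in brain and 32.1% to 32.9% in testis. Because the sets were chosen on these levels, their shares are a description.

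The testis set was concentrated in its extreme members. Genes at least 16-fold higher in testis held 45.6% to 46.5% of testis FPKM, and 540 of the 1636 averaged 100 FPKM or more in testis. Genes at least 16-fold higher in brain held 20.5% to 20.9% of brain FPKM, and 242 of the 1087 averaged 100 FPKM or more in brain. Brain FPKM lay more in genes 4- to 16-fold higher there, which held 34.3% to 35.9% and include 9 of the 10 highest. In testis, the genes 4- to 16-fold higher held 15.8% to 15.9%.

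Restricted genes averaged 10 FPKM or more in a tissue while the median of the other tissue did not exceed 0.5 FPKM. They numbered 609 for brain and 886 for testis, or 603 and 1013 without brain replicate 2. The brain-restricted genes held 6.73% to 6.96% of brain FPKM, and the testis-restricted ones 7.30% to 7.41% of testis FPKM. Complete silence was rarer. Among genes averaging 10 FPKM or more in testis, 41 had 0 reads in all 3 brain libraries, and 173 had 0 reads in brain replicates 1 and 3. Among genes averaging 10 FPKM or more in brain, 58 had 0 reads in all 3 testis libraries.

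The 100 highest genes of each tissue shared 12 members, or 12% of each list. Of the 100 highest in brain, 94 were called higher in brain, against 48.2% of all genes tested, 3 lower and 3 were not called. Their median difference was 3.92 on the log2 scale toward brain. Of the 100 highest in testis, 90 were called higher in testis, against 41.5% of all genes tested, 9 lower and 1 was not called, with a median of 6.70 toward testis. These lists were chosen by level in the tissue in which they are high, so the direction follows in part from the choice. A 16-fold difference was reached by 49 of the brain genes, against 6.75% of all genes, and by 73 of the testis genes, against 10.2%. In the other tissue, 17 of the 100 brain genes and 0 of the 100 testis genes had a mean under 1 FPKM. Without brain replicate 2, 16-fold was reached by 47 brain and 73 testis genes, and 2 of the 100 testis genes had a brain mean under 1 FPKM.

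A smaller part of the genes tested was alike in the tissues. For 3271 genes (20.3% of those tested) the 95% interval of the difference lay within 2-fold in either direction, and for 1441 genes (8.94%) within 1.5-fold. Both counts were made on FPKM as deposited and not repeated with other scalings. The log2 median over all genes was 0.23 on this scale, 0.03 with median-ratio scaling and 0.43 with an equal FPKM total. The 1653 genes that were not called had median levels of 6.06 FPKM in brain and 6.002 in testis. They held 5.38% to 5.55% of brain FPKM and 4.55% to 4.74% of testis FPKM. Genes of at least 1 FPKM in each of the 6 libraries numbered 10049, or 62.4% of those tested. On the scale used, shared detection was thus common, and equal level was not.

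The difference varied with the level of the gene. Among 830 genes averaging 100 FPKM or more in the 6 libraries, 46.6% were called at least 4-fold higher in testis and 23.1% in brain, and the median was -1.53 on the log2 scale. Among 4756 genes of 3 to 10 FPKM, 19.6% were called at least 4-fold higher in testis and 25.3% in brain, with a median of 0.65. From 10 to 30 FPKM the median of 4690 genes was 0.37, and from 30 to 100 FPKM that of 2638 genes was -0.41. From 3 FPKM upward, the balance thus moved from brain to testis as the level rose. The level is the mean of the same 6 libraries that give the difference, so level and difference are not independent. It also uses FPKM as deposited, whose total is higher in testis. Among the 3201 genes of 1 to 3 FPKM, 28.5% were called at least 4-fold higher in testis and 17.2% in brain, toward testis as at high levels, although the median was 0.10, within the shift that scaling gives.

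Gene length was read from the steps of the FPKM values, as the smallest length that makes every library whole, and the gene model behind it is not known. The recovered length did not enter the main choice or test of genes. However, FPKM itself divides by length, so the filter and the pseudocount stand for fewer reads in short genes than in long ones. The genes at least 4-fold higher in testis had a median length of 1503 bp (quartiles 732 and 2498). Those at least 4-fold higher in brain had a median of 2436 bp (quartiles 1485 and 3806), and the median of all genes tested was 2076 bp. Short genes carry few reads, so the same was computed for genes averaging 100 reads or more. The medians were then 1972 bp for testis and 2841 bp for brain, against 2461 bp for the 12236 genes of that depth. The testis set was shorter and the brain set longer than the tested genes at either depth.

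The trend ran through the classes of length. Among 1721 genes of 500 to 1000 bp, 43.6% were called at least 4-fold higher in testis and 13.8% in brain. Among 2806 genes of 4000 bp or more, 12.5% were called so in testis and 28.9% in brain. The median difference went from -1.22 in the first of these classes to 0.78 in the second on the log2 scale. Genes under 500 bp had a median of -0.68 and a median of 12.5 reads per library, so their values are the least precise. Across all genes tested, length and difference had a Spearman rho of 0.199, given as a description.

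**Figure D5:**
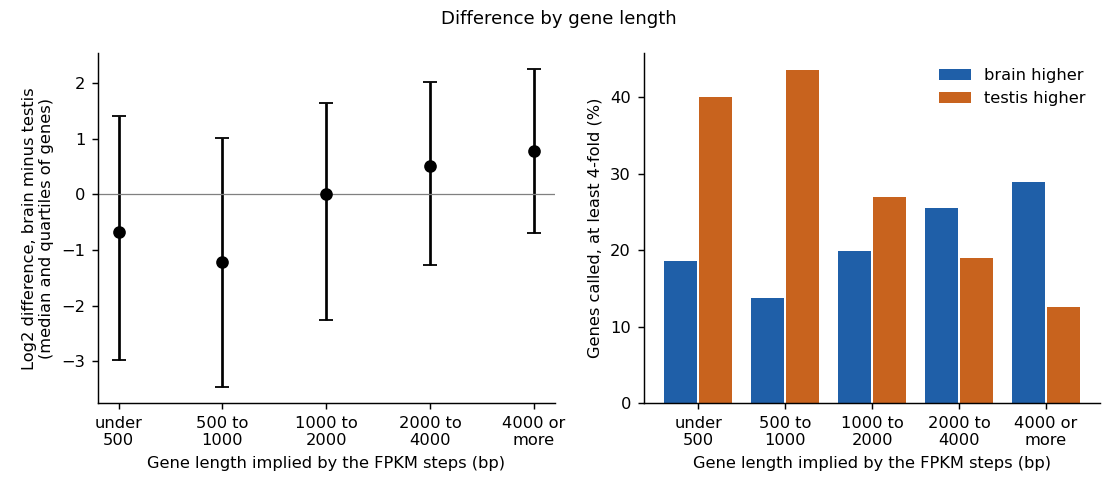
Left, log2 difference, brain minus testis, by gene length (horizontal axis, bp), as the median (point) and quartiles (bars) over genes. Right, percent of genes in each class called at least 4-fold higher in brain (blue) or testis (orange), from 13.8% and 43.6% at 500 to 1000 bp to 28.9% and 12.5% at 4000 bp or more.

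The trend was not the same at every level. From 3 to 10 FPKM the median difference was -0.85 for 816 genes under 1000 bp and 1.03 for 1022 genes of 4000 bp or more. At 100 FPKM or more it was -1.14 for 225 genes under 1000 bp, -1.93 for 564 genes of 1000 to 4000 bp and 1.17 for 41 genes of 4000 bp or more. Among the most abundant genes the middle class was therefore the one farthest toward testis.

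Library by library, reads in brain came from longer genes. The mean gene length per read was 3500 ± 67.3 bp in brain and 2979 ± 33.1 bp in testis (SD, n = 3 each), with every brain library above every testis library. Genes of 4000 bp or more took 30.7% ± 0.991 of reads in brain and 22.4% ± 0.470 in testis. Genes under 1000 bp held 25.1% ± 0.519 of FPKM in brain and 31.1% ± 0.516 in testis, although they include 5 of the 10 highest brain genes. FPKM divides by length, so a library with reads in shorter genes has a larger total. The FPKM of all genes summed to 461245 to 476067 in brain and 539160 to 546980 in testis. The FPKM of the tissues are thus not on 1 scale, and the split at 4-fold turned with an equal total. Reads do not divide by length. The 10 highest genes by FPKM took 8.53% to 9.59% of reads in brain and 3.58% to 3.96% in testis, each list in its own tissue. The 10 highest genes ranked by reads instead took 8.79% to 9.79% and 4.27% to 4.64%.

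The wild-type differences were seen again in the transgenic libraries, which share no library with them. Of the 14462 genes called in wild type, 14383 (99.5%) had the same sign of the brain minus testis difference in transgenic rats, and all 2723 called genes of at least 16-fold did. The same sign was also found for 1226 (74.2%) of the 1653 genes not called in wild type, so it is common without a call. The differences correlated across the 16115 genes at r = 0.992. The 10 highest genes held 16.3% to 18.2% of FPKM in transgenic brain and 9.50% to 10.7% in transgenic testis. The number of genes of at least 100 FPKM was 655 to 700 and 1061 to 1103. At 1 FPKM the transgenic groups did not overlap, with 13573 to 13733 genes in brain and 14314 to 14709 in testis, while the wild-type groups did through brain replicate 2.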

How the data were processed

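RNA in Trizol was made into libraries with the Illumina TruSeq RNA kit, per the labels' protocols. The submitters' processing notes list Bowtie 1.0.1 and Rnor_6.0. The sources used here give no annotation, counter or strand setting, so overlapping genes and near-identical copies are uncertain. The authors deposited FPKM values for 25908 genes. For 100% of genes, 1 length of up to 60000 bp turned all 12 values into whole reads, within 0.002 reads, against 0% after moving 2000 genes by about 1%. The moved genes were drawn from those above 0 in all 12 libraries. Lengths of genes with few values above 0 were thus not checked in this way. Of each recovered total, 99.987% or more lay in listed genes. How many reads were mapped in all is unknown. Chi-square per gene between replicates was 4.79 to 14.2, and they were counted separately.

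Brain and testis were compared by limma 3.58.1 in R 4.3.3 (two-sided, intensity trend) on log2(FPKM + 0.5) for genes averaging 1 FPKM or more. The threshold was 0.05 for p adjusted by Benjamini-Hochberg. Fold changes on this scale understate low genes. Values per library were compared with exact two-sided permutation tests. Printed identifiers are the 2 largest called differences in each direction among genes of at least 100 FPKM in the higher tissue, leaving out genes at 0 throughout the other. Members, sets and tests were chosen with earlier results of these data known. The fixed gene lists and sequences were not used here, for want of names. Shares, counts and permutation tests were computed with scipy 1.17.1, pandas 2.3.3 and numpy 2.4.6 in Python 3.11.15, and plots with matplotlib 3.10.9.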

Additional observations from a re-analysis of the deposited data

How the results depend on the processing

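The count of called genes stayed within 1.5 times of 14462 in all 20 alternatives, from 10062 when tested against a 2-fold difference to 17472 without a filter, and brain was the more often higher in each. It was 14076 to 14442 without single libraries. With the replicate number as a block it was 14382. Same-numbered brain and testis libraries did not deviate together (r = -0.002, -0.016 and 0.020), and not every library correlated best with its own number. Each of the 4 printed identifiers was called in its 20 alternatives. The removals of highest genes and the equal FPKM total were chosen after seeing the data. The brain minus testis difference in the share of the 100 highest genes, 6.42 percentage points, was 4.21 by reads, -6.68 without the 10 highest brain genes and -0.755 without those of either tissue. For the number of genes that hold 50% of FPKM, -36.3 became 3.33 by reads, 393 and 250. For the effective number, -647 became -394 by reads, 1742 and 832. The turn by reads came from the change of measure, and its cause was not tested. The other turns came from leaving out those genes. Single libraries moved the number of genes that hold 50% of FPKM from -36.3 to -65.7 without brain replicate 2, -12.2 without brain replicate 3 and -23.7 without testis replicate 2. For the genes at 1 FPKM, -601 became -1834 at 0.1 FPKM, 578 at 10 FPKM and -1083 for 10 reads at equal depth. Removal of the mitochondrially encoded genes as a named set was not run, for want of names. Whether the 10 highest brain genes, left out above, include such genes was not tested. Genes near the floor of 3 reads are limited by depth.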
